A study of Sus scrofa with 4 samples.

Results

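Fibrillar, type VI and type VIII collagen chains were examined in RNA sequencing of cells sorted by an LGR5 reporter from pig epidermis and hair. The list held 10 chains, COL1A1, COL1A2, COL3A1, COL5A1, COL5A2, COL6A1, COL6A2, COL6A3, COL8A1 and COL8A2, and each was matched by its gene symbol. Of these, 9 were read among the 29837 named genes, and COL6A1 was not analysed here. All 9 passed the filter on low counts. The cells came from 2 juvenile LGR5-H2B-GFP pigs, 88R and 95R, in which histone H2B fused to GFP had been placed in exon 1 of one LGR5 allele. The animals trace back to clonal fetal fibroblasts used for nuclear transfer, and which of them were founders or offspring is not given in the labels. LGR5-high cells (GFP-hi) and LGR5-negative cells (GFP-neg) were sorted from the trypsin-dissociated epidermis and hair of each animal after Dispase had freed them from the dermis, which gave 1 library per population and pig. H2B-GFP is a stable nuclear protein that is diluted by cell division, so its brightness need not track the current LGR5 transcript. The paper reports that GFP colocalised with LGR5 transcript in skin, and that GFP intensity was related to LGR5 mRNA in sorted cells.

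The libraries held between 30696803 and 32463362 counts on named genes, and 3 counts corresponded to between 0.0873 and 0.105 CPM, the normalised abundance of a gene after scaling between libraries. LGR5 itself, the gene behind the sort, had 4551 counts in LGR5-high and 36 in LGR5-negative of pig 88R, and 6224 and 109 counts in those of pig 95R. From here on, a pair of values gives pig 88R first and pig 95R second. Of 7 keratinocyte markers tested, all with counts in the 4 libraries, EPCAM was higher, PERP and SFN were lower, and KRT5, TP63, CDH1 and DSP passed the test in neither direction. Populations were compared by the quasi-likelihood test of edgeR, and p-values were adjusted after Benjamini and Hochberg over 15980 genes. At a threshold of 0.05, 22.7% of these genes were called higher and 22.0% lower in LGR5-high.

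Fibrillar collagens are secreted as procollagens whose chains wind into a helix in the endoplasmic reticulum, lose their propeptides outside the cell and pack into fibrils. Type I fibrils give the dermis its tensile strength, type III runs alongside type I, and type V is built into type I fibrils and limits their diameter. Type VI collagen forms beaded filaments near cells and basement membranes, and type VIII is a short-chain collagen of sheet-like networks such as those under endothelia. Dermal fibroblasts are known as the main source of types I, III and VI. The cells sorted here came from epidermis and hair separated from the dermis. They were sorted by GFP and a live/dead stain, and which cell types gave the collagen reads was not tested.

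Of the 9 chains, 7 were higher in LGR5-high and 2, COL3A1 and COL6A3, were lower, and the counts of both directions stand beside the 22.7% and 22.0% of all tested genes. The chains that rose ranged from COL5A2, at 1.43-fold, to COL8A2, at 54.95-fold. COL3A1 was 8.52-fold lower and COL6A3 was 25.7-fold lower. The populations did not overlap for any of the 9 chains, and the same held for 76.6% of all tested genes. The median log2 fold change was 1.85 over the 9 chains, which is the value of COL1A1, and 0.01 over all tested genes. In fits that left out 1 library, the median of the chains ran from 1.117 to 2.325. Together the 9 chains had 1327 and 1543 CPM in the LGR5-high libraries, and 466 and 356 CPM in the LGR5-negative ones. In such bulk libraries, fewer cells that express a gene and less RNA per cell cannot be told apart. In a fit with a replicate block for the animal, the same 7 chains were higher and the same 2 were lower, where 28.5% and 27.2% of all tested genes were called. Under the methods' t-test on log2 CPM, which called few genes in either direction, only COL8A2 kept its call.

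**Figure D1:**
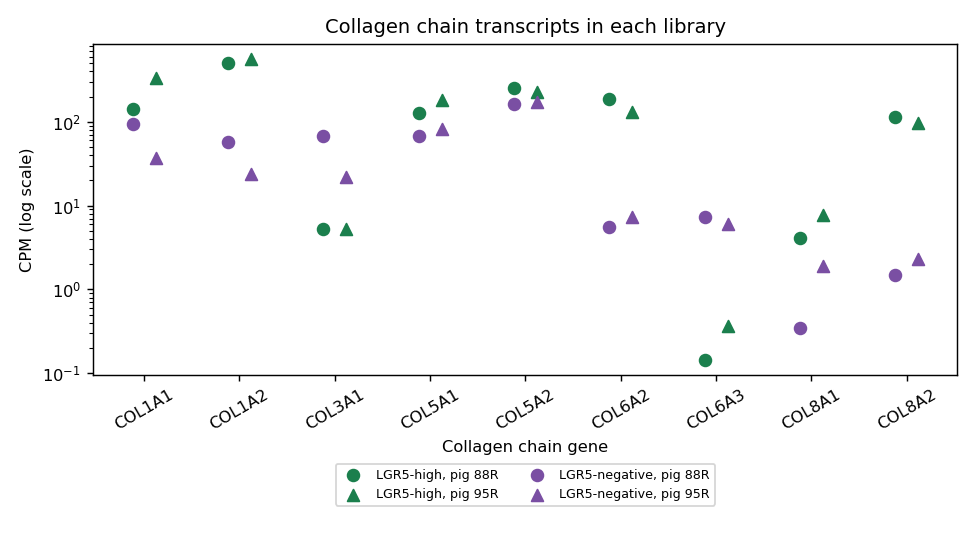
Normalised abundance of the 9 collagen chains in each library, in CPM on a log axis. Green marks LGR5-high and purple LGR5-negative, and circles and triangles mark pigs 88R and 95R. The purple symbols lie above the green ones for COL3A1 and COL6A3 only.

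Type I collagen is assembled from COL1A1 and COL1A2, which encode its alpha 1 and alpha 2 chains. COL1A2 had 497 and 561 CPM in the LGR5-high libraries, against 57.7 and 24.0 CPM in LGR5-negative. Both LGR5-high values were far above both LGR5-negative values, and the fitted log2 fold change was 3.70 (standard error 0.408, edgeR adjusted p = 0.00122). Its mean was 529 ± 45.4 CPM (SD, n = 2) in LGR5-high and 40.8 ± 23.8 CPM (SD, n = 2) in LGR5-negative. The pigs gave log2 fold changes of 3.11 and 4.54, and without the LGR5-negative library of pig 88R the fitted value was 4.46.

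COL1A1 had 142 and 331 CPM in LGR5-high and 94.0 and 37.3 CPM in LGR5-negative. The populations did not overlap, but the lower LGR5-high library and the higher LGR5-negative library, both from pig 88R, lay close together. Its mean was 237 ± 134 CPM (SD, n = 2) in LGR5-high and 65.6 ± 40.1 CPM (SD, n = 2) in LGR5-negative. The log2 fold change was 1.85 (standard error 0.545, edgeR adjusted p = 0.0374), made up of 0.60 and 3.15 within the pigs. This call rested on pig 95R. Without the LGR5-high library of 95R the log2 fold change was 1.12 (edgeR adjusted p = 0.174), and without its LGR5-negative library it was 1.32 (edgeR adjusted p = 0.0606). Without the LGR5-negative library of 88R it was 2.66. DESeq2 gave COL1A1 an adjusted p of 0.0671, whereas the replicate block in edgeR gave 0.000239.

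COL3A1 encodes the single chain of type III collagen, a fibrillar collagen of extensible tissues. LGR5-high held 183 and 172 counts of it, or 5.32 and 5.21 CPM. The LGR5-negative libraries held 1929 and 669 counts, or 67.7 and 22.1 CPM. The LGR5-high libraries were nearly equal, and the LGR5-negative libraries, both higher, differed from each other by 3.06-fold. COL3A1 thus changed by -3.09 on the log2 scale (standard error 0.529, edgeR adjusted p = 0.00596), and the pigs gave -3.65 and -2.07. It was -2.08 without the LGR5-negative library of pig 88R and -3.69 without that of pig 95R, and was called in both fits (edgeR adjusted p = 0.000303 and 1.97e-05). In the RefSeq annotation of Sscrofa11.1, COL3A1 lies next to COL5A2, which changed in the opposite direction.

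COL5A1 and COL5A2 encode the chains of type V collagen, the minor fibrillar collagen found inside type I fibrils. COL5A1 had 126 and 183 CPM in LGR5-high and 68.4 and 83.0 CPM in LGR5-negative. Its log2 fold change was 1.03 (standard error 0.195, edgeR adjusted p = 0.00847). COL5A2 had 253 and 227 CPM in LGR5-high and 163 and 172 CPM in LGR5-negative. Its log2 fold change of 0.52 (standard error 0.0897, edgeR adjusted p = 0.0062) was the smallest of the 9 chains in size. In Sscrofa11.1, COL5A2 overlaps WDR75 and 2 uncharacterised loci, and without a stated strand setting their reads cannot be separated with certainty. WDR75 had between 1065 and 1482 counts per library.

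**Figure D2:**
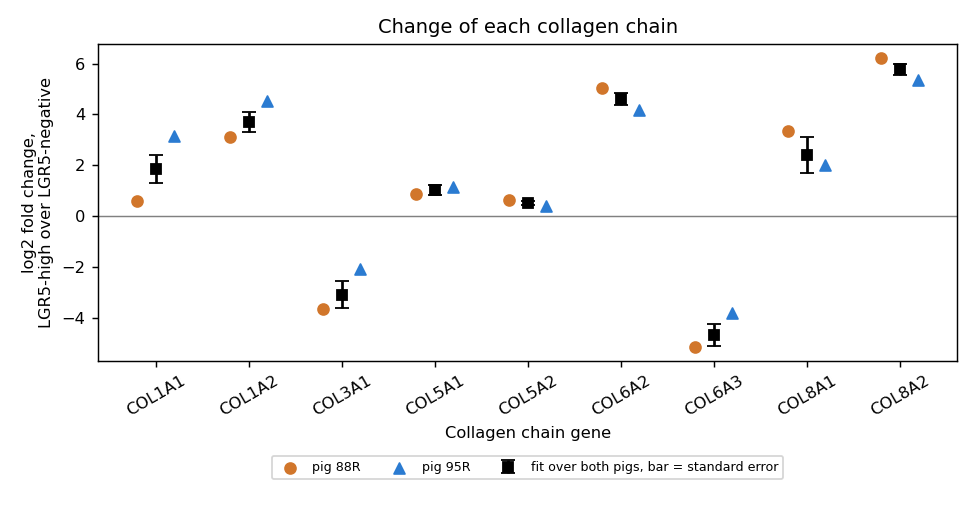
The log2 fold change of each collagen chain, LGR5-high over LGR5-negative, from the edgeR fit (black squares, bars give the standard error) and within pigs 88R (circles) and 95R (triangles). The values run from -4.69 for COL6A3 to 5.78 for COL8A2, and for each chain both pigs lie on the same side of 0.

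Type VI collagen is normally built from COL6A1, COL6A2 and COL6A3 chains. For COL6A2, LGR5-high held 6384 and 4320 counts, or 186 and 131 CPM. In LGR5-negative it had 160 and 220 counts, or 5.61 and 7.28 CPM. That gave a log2 fold change of 4.61 (standard error 0.229, edgeR adjusted p = 0.000106). In the RefSeq annotation of Sscrofa11.1, COL6A2 is not placed on a chromosome, so overlapping genes could not be looked up for it.

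COL6A3, the largest chain of the type VI molecule, went the other way. LGR5-high held 5 and 12 counts, which corresponds to 0.145 and 0.363 CPM and lies close to the floor of 3 counts. The LGR5-negative libraries held 207 and 180 counts, or 7.26 and 5.96 CPM. The fitted value was -4.69 on the log2 scale (standard error 0.42, edgeR adjusted p = 0.000589), and the pigs gave -5.13 and -3.82. Without the LGR5-high library of pig 95R it was -5.46. The chains that can take the place of COL6A3 were scarce as well. COL6A5 had at most 6 counts and COL6A6 at most 5 counts in any library, and neither passed the filter.

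COL8A1 and COL8A2 encode the chains of type VIII collagen. COL8A2 had 113 and 96.3 CPM in LGR5-high and 1.47 and 2.32 CPM in LGR5-negative. With a log2 fold change of 5.78 (standard error 0.218, edgeR adjusted p = 6.28e-05), it had the largest increase of the 9 chains and ranked 75 by p-value among all tested genes.

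COL8A1 rested on fewer counts. It had 141 and 255 counts in LGR5-high and 10 and 57 counts in LGR5-negative, or 4.10 and 7.72 CPM against 0.351 and 1.89 CPM. Within each population pig 95R was higher, with a ratio of 88R over 95R of 0.531 in LGR5-high and 0.186 in LGR5-negative. The change of 2.39 on the log2 scale was called (standard error 0.708, edgeR adjusted p = 0.0386). It lost the call when the LGR5-high library of pig 88R (edgeR adjusted p = 0.0553) or of pig 95R (edgeR adjusted p = 0.172) was left out, and the value was 1.64 without the LGR5-negative library of pig 88R and 4.05 without that of pig 95R.

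Ratios between partner chains were then taken within each library, which removes the scaling between libraries. As the chains differ in transcript length, which was not available, a ratio is compared between libraries and not read as a stoichiometry. The 6 pairs are not separate observations, since 3 of them share COL1A1, COL1A2 and COL3A1. With 2 libraries against 2, the exact permutation test of each pair (2-sided) gave p = 0.333, the smallest it allows, so none of the 6 ratios can pass a threshold by this test. The intervals below are exact Clopper-Pearson 95% intervals and cover counting error only.

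The ratio that moved most was COL6A3 to COL6A2. COL6A3 made up 56.4% (51.2% to 61.5%) and 45.0% (40.1% to 50.0%) of the counts of this pair in the LGR5-negative libraries. In LGR5-high its share was 0.0783% (0.0254% to 0.183%) and 0.277% (0.143% to 0.483%). On the log2 scale the mean ratio was 0.04 ± 0.47 (SD, n = 2) in LGR5-negative and -9.31 ± 1.24 (SD, n = 2) in LGR5-high, a 652-fold difference. Pig 88R alone gave a difference of -10.55 and pig 95R alone one of -8.14. Leaving out the LGR5-high library of 88R or of 95R gave -8.47 or -10.22.

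COL3A1 and COL1A2, the type III chain and a type I chain, changed in opposite directions. In LGR5-negative, COL3A1 took 54.0% (52.3% to 55.6%) and 48.0% (45.3% to 50.7%) of the pair. In LGR5-high it took 1.06% (0.912% to 1.22%) and 0.919% (0.787% to 1.07%). The difference of the mean log2 ratios was -6.70, a 104-fold shift, and the pigs gave -6.77 and -6.63. Among the 6 ratios this one had the smallest spread between pigs relative to its difference. Against COL1A1, COL3A1 took 41.9% and 37.3% in LGR5-negative and 3.61% and 1.55% in LGR5-high, a difference of -4.75 in log2 ratio. It was -5.38 without the LGR5-high library of 88R and -4.12 without that of 95R.

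The makeup of type I collagen transcripts also differed. COL1A1 held 62.0% (60.5% to 63.4%) and 60.8% (58.6% to 63.1%) of the type I counts in the LGR5-negative libraries, which agree within counting error. In LGR5-high it held 22.2% (21.7% to 22.8%) and 37.1% (36.6% to 37.7%). The mean log2 ratio of COL1A1 to COL1A2 went from 0.67 ± 0.05 (SD, n = 2) in LGR5-negative to -1.28 ± 0.74 (SD, n = 2) in LGR5-high. Within the pigs the difference was -2.51 and -1.39.

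COL5A1 and COL5A2 kept the most similar ratio. COL5A1 held 29.5% (28.4% to 30.7%) and 32.6% (31.5% to 33.6%) of the type V counts in LGR5-negative and 33.2% (32.4% to 34.1%) and 44.7% (43.8% to 45.5%) in LGR5-high. The difference of the mean log2 ratios, 0.50, was close to the spread between pigs (pooled SD 0.36). COL8A1 held 19.2% (9.63% to 32.5%) and 44.9% (36.1% to 54.0%) of the type VIII counts in LGR5-negative, and 3.50% (2.95% to 4.11%) and 7.42% (6.57% to 8.35%) in LGR5-high. Its log2 ratio to COL8A2 differed by -3.05 between the populations, with a pooled SD of 1.03 between pigs. Without the LGR5-negative library of 88R the difference was -3.92, and without that of 95R it was -2.19.

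**Figure D3:**
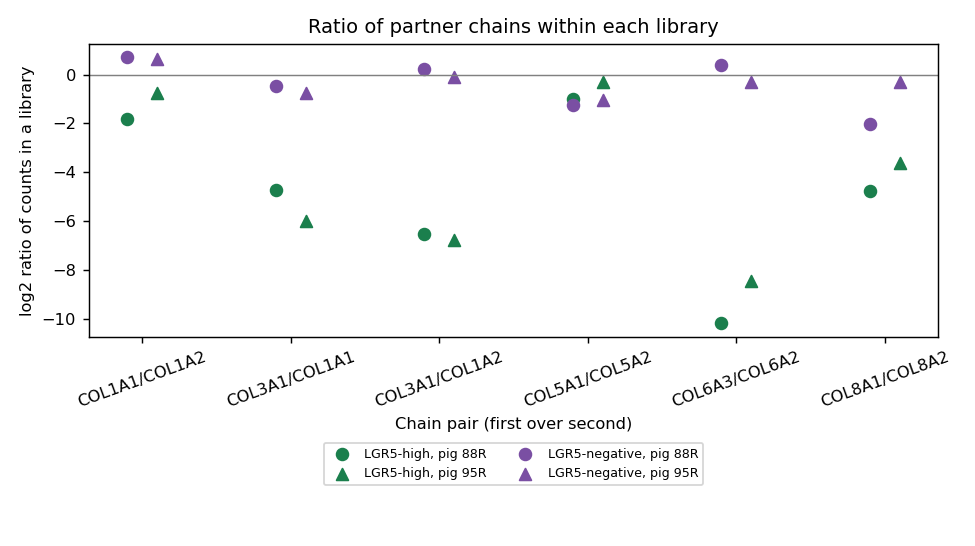
The log2 ratio of the counts of partner chains in each library, first chain over second. Green marks LGR5-high, purple LGR5-negative, circles pig 88R and triangles pig 95R. The ratios fall furthest in LGR5-high for COL6A3/COL6A2, to -10.18 and -8.43, and least apart are those of COL5A1/COL5A2.

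As shares of the counts of all 9 chains, COL1A2 rose from 12.4% and 6.74% in the LGR5-negative libraries to 37.5% and 36.4% in LGR5-high. COL6A2 went from 1.21% and 2.05% to 14.0% and 8.48%, and COL8A2 from 0.316% and 0.651% to 8.53% and 6.24%. COL5A2 had 35.0% and 48.3% in LGR5-negative and 19.1% and 14.7% in LGR5-high, a lower share at a higher level. COL3A1 dropped from 14.5% and 6.22% to 0.401% and 0.337%.

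**Figure D4:**
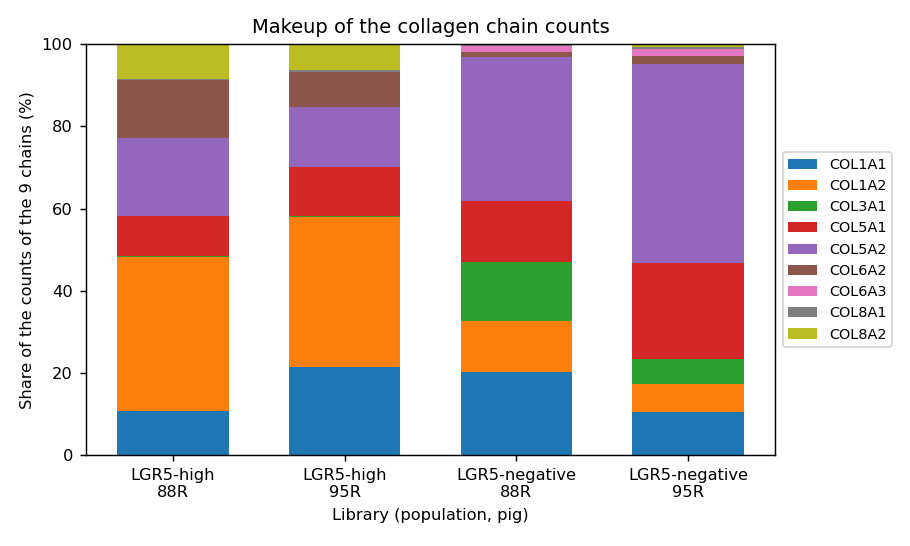
Share of each chain among the counts of the 9 collagen chains in each library, in percent, not corrected for transcript length. COL1A2 takes 37.5% and 36.4% of the LGR5-high bars, while COL5A2 takes 35.0% and 48.3% of the LGR5-negative bars and COL3A1 is visible in those only.

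The chains also varied between the pigs. In LGR5-negative, COL1A1, COL1A2 and COL3A1 were 2.52-fold, 2.40-fold and 3.06-fold higher in pig 88R than in 95R. The other 6 chains had ratios of 88R over 95R between 0.186, for COL8A1, and 1.22, for COL6A3. Over all tested genes with counts in both of these libraries the median ratio was 0.99. In LGR5-high these type I and III chains did not share the difference, with ratios of 0.429 for COL1A1, 0.886 for COL1A2 and 1.02 for COL3A1. With 1 library per population and pig, the difference between the pigs has no replicate check.

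Genes with the most similar profile were found by the Euclidean distance between log2 CPM values centred over the 4 libraries, a description over 4 points that the sort largely shapes. COL8A2 was closest to THSD7B (distance 0.102) and LOXL1 (0.155), the latter a lysyl oxidase that crosslinks elastin and collagen. COL6A2 was closest to CDH12 (0.187), SLCO4A1 (0.197) and EMILIN3 (0.248), and COL1A2 to GLIS3 (0.0719). COL8A1 was closest to LRRN1 (0.235), and COL1A1 to GPR85 (0.173), a gene under 1 CPM. COL5A1 had BOC (0.108), a Hedgehog co-receptor, among its nearest genes, and COL5A2 had HSPG2 (0.0439), which encodes the basement membrane proteoglycan perlecan. COL6A3 had more distant neighbours, HRH2 (0.734), CCL27 (0.827), a chemokine of keratinocytes, and LY6D (0.864). COL3A1 was closest to RGS16 (0.406), C2H5orf46 (0.557) and ADA2 (0.564). Among the 9 chains themselves, COL5A1 and COL5A2 lay closest (0.713), followed by COL6A2 and COL8A2 (1.21), and COL6A3 and COL8A2 were 10.3 apart. COL3A1 and COL6A3 were 2.01 apart.

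Related collagens did not all move the same way, and single values in brackets here and in the next paragraphs on gene lists are log2 fold changes, LGR5-high over LGR5-negative. Of the 6 other fibrillar collagens, 2 were higher and 1 was lower in LGR5-high. COL11A1, the type XI chain akin to COL5A1, had 52.0 and 25.8 CPM in LGR5-high and 2.07 and 1.52 CPM in LGR5-negative (log2 fold change 4.44, edgeR adjusted p = 0.000645). COL27A1 had a log2 fold change of 1.84, and COL5A3, the alternative type V chain, one of -0.95 (edgeR adjusted p = 0.00324). Among 8 tested fibril-associated collagens, which bind to fibril surfaces, 4 were higher and 1, COL12A1, was lower (-1.04). Among those higher were the type IX chains COL9A3 (6.81) and COL9A2 (2.34).

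Enzymes of procollagen folding were divided. Of 16 tested, 4 were higher, among them FKBP10 (3.29), a collagen chaperone, and PLOD2 (2.48), a lysyl hydroxylase of the telopeptides. Another 5 were lower, including COLGALT1 (-1.29) and the prolyl hydroxylase subunit P4HA1 (-0.66). None of the 8 genes of procollagen export was higher and 3 were lower, with SEC24D (-0.75) and MIA3 (-0.63) the lowest. The proteinases that cut propeptides and their enhancers were higher in 5 of 6 tested cases. ADAMTS2, the N-propeptidase of types I to III, had 34.6 and 33.9 CPM in LGR5-high and 3.33 and 4.47 CPM in LGR5-negative (log2 fold change 3.13, edgeR adjusted p = 0.000141), and ADAMTS3 had a log2 fold change of 2.52.

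Of the 4 lysyl oxidases tested, LOX, LOXL1 (5.82) and LOXL2 (2.32) were higher and LOXL4 (-2.26) was lower. The 11 tested proteins that bind fibrils split evenly, with 4 higher and 4 lower. BGN (5.52) and THBS2 (5.37) rose, whereas LUM (-4.10) and DPT (-2.15) fell. LUM had 5 and 0 counts in LGR5-high, near or at the floor. Among 11 collagen receptors, 6 were higher and 2 were lower. MRC2, an endocytic receptor for collagen fragments, had a log2 fold change of 5.12 and ITGA1, the alpha subunit of a collagen-binding integrin, one of 3.89. The lower ones were the type VI collagen receptors ANTXR1 (-1.02) and ANTXR2 (-1.59). Of 6 tested proteinases that degrade interstitial collagen, MMP2 (5.81) was higher, and CTSK (-0.99) and MMP9 (-2.61) were lower. MMP9 was scarce, with 5 and 1 counts in LGR5-high, near the floor, and 19 and 14 in LGR5-negative. Beside these counts, 22.7% and 22.0% of all tested genes were higher and lower.

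**Figure D5:**
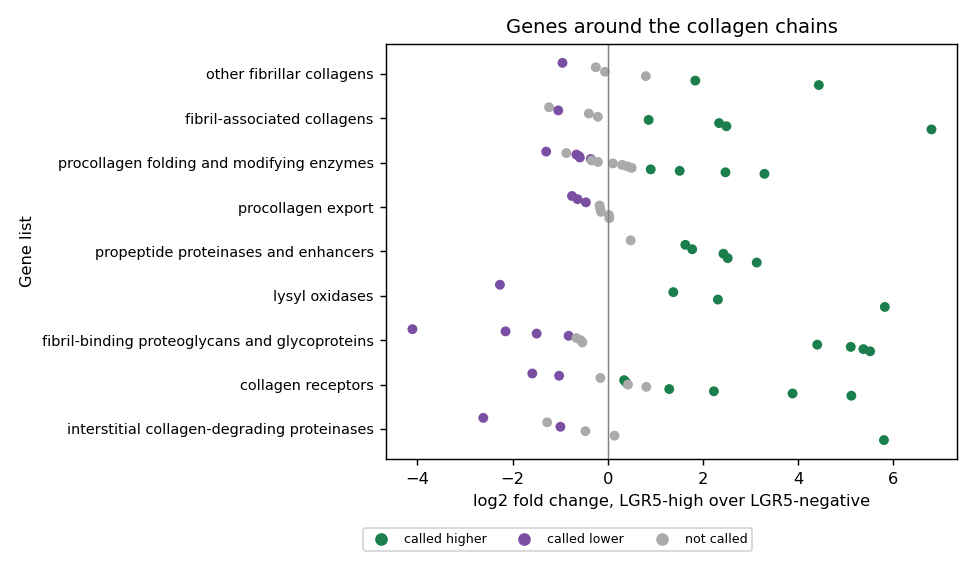
The log2 fold change, LGR5-high over LGR5-negative, of each tested gene in 9 lists of genes around the collagen chains. Each point is a gene, coloured by whether it was higher, lower or not called at an edgeR adjusted p-value under 0.05. Points of both colours appear in most lists, with no lower gene among the propeptide proteinases and no higher one in procollagen export.

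Markers of other cell types were measured beside the chains, and their part in these results was not tested. Beside the counts of called markers in this paragraph and the next, 22.7% of all tested genes were higher and 22.0% lower in LGR5-high. Of the 13 fibroblast markers tested, 8 were lower in LGR5-high and 3, THY1, FBLN1 and CXCL12, were higher, and DCN, LUM and DPT of this list were also counted above. The summed level of the list was 617 to 623 CPM in LGR5-high and 366 to 516 CPM in LGR5-negative. Most of it came from THY1 and DCN. THY1 alone had 504 and 466 CPM in LGR5-high and 267 and 117 CPM in LGR5-negative. DCN went the other way, with 83.4 and 112 CPM against 182 and 163 CPM. The direction of the sum is thus that of THY1, whereas most markers of the list were lower. The markers were unevenly detected. PDGFRA and LUM had 4 and 5 counts in the LGR5-high library of pig 88R and 3 and 0 counts in that of 95R, near or at the floor. In the same libraries DCN, called lower, had 2868 and 3690 counts. THY1, called higher, had 17314 and 15406 counts there, and FBLN1, also higher, had 755 and 759. In LGR5-negative, PDGFRA had 21 counts in each pig, and LUM had 47 counts in 88R and 31 in 95R. The ratio of 88R over 95R there was above 1 for 8 of the 13 fibroblast markers and below 1 for 5, with a median of 1.12 and a range from 0.326 for APOD to 2.28 for THY1, beside the 3.06 of COL3A1.

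Endothelial markers summed to between 6.63 and 7.78 CPM in LGR5-high and between 22.1 and 22.5 CPM in LGR5-negative, with 5 of 7 lower and none higher. Of 5 pericyte and smooth muscle markers tested, RGS5, ACTA2, MYH11 and CNN1 were higher and NOTCH3 was lower, and the sums were 386 to 399 CPM and 555 to 652 CPM in the same order. NOTCH3 made up most of these sums, and without it they were 16.2 to 16.6 CPM in LGR5-high and 4.70 to 5.43 CPM in LGR5-negative, the opposite direction. Langerhans cell and leukocyte markers, with 4 of 6 lower and 1 higher, gave 16.0 to 16.2 CPM and 103 to 146 CPM. Melanocyte markers, with 5 of 7 lower, gave 62.0 to 62.2 CPM in LGR5-high and 83.2 and 258 CPM in the LGR5-negative libraries, the opposite order of the type I and III chains. Schwann cell markers (2 higher and 2 lower of 5) gave 62.0 to 81.4 CPM and 17.7 to 25.2 CPM, and without NGFR 10.8 to 16.3 CPM and 15.4 to 23.1 CPM. Dermal papilla markers (3 higher and 1 lower of 6) gave 49.4 to 54.4 CPM and 53.3 to 55.9 CPM, and Merkel cell markers, of which only PIEZO2 passed the filter and was higher, 8.45 to 11.8 CPM and 0.702 to 1.46 CPM. Among epithelial lists, 5 of 7 outer root sheath and bulge markers were higher. These include LGR5 itself, whose reporter defined the populations, and NFATC1 and KRT15 were not called. With the replicate block KRT15 was higher (edgeR adjusted p = 2.13e-06), with log2 fold changes of 0.64 and 0.83 within the pigs. NFATC1 was not called in that fit either (edgeR adjusted p = 0.169). Of the suprabasal markers, 4 of 6 were lower, and LOR and IVL were not called.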

How the data were processed

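RNA of sorted LGR5-high and LGR5-negative epidermal cells of pigs 88R and 95R was sequenced from poly(A)-selected libraries. The authors deposited 1 table of raw counts by gene symbol, not normalised, with a column for each of the 4 libraries. The submitters' processing notes name Trimmomatic 0.36, STAR 2.5.2b and featureCounts of Subread 1.5.2. The genome build, annotation and strand setting are not given in the sources used here. All 29837 gene symbols matched the RefSeq genes of Sscrofa11.1, from which only neighbours and overlaps were taken. An entry without a name, at most 0.626% of a library, was left out.

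The fit used edgeR 4.0.16 under R 4.3.3, TMM scaling and the genes kept by filterByExpr (count of 10, total of 15). Its 2-sided quasi-likelihood test had no term but the population, and Benjamini-Hochberg adjustment ran over 15980 genes. Standard errors follow from the F statistic. The log2 fold changes of single pigs and the profiles used a prior count of 2. Partner ratios used a pseudocount of 0.5 counts, and the pairs that need COL6A1 were not made. Both populations came from the same animals, named in the sample titles, and deviations from the population mean correlated at 0.370 between libraries of the same pig. Libraries of one population differed by more than counting noise (chi-square per degree of freedom 16.1 and 18.1).

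Results were recomputed with the pig as a replicate block, with DESeq2 1.42.0, with the methods' t-test on log2 CPM (pseudocount 1), without each library, with 3 other scalings (size factors as in DESeq2, upper quartile, library size) and with 2 other filters (any gene counted, or 10 counts in each library). The scripts were tested on simulated data. Named genes are the 9 chains, the 3 nearest profiles of a chain, and up to 2 called genes in each direction per gene list with at least 1 CPM. Other genes named from the lists were chosen after their values were seen. The chains and gene lists were chosen with earlier results of these data known. Plots used matplotlib 3.10.9.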

Additional observations from a re-analysis of the deposited data

How the results depend on the processing

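No chain changed direction under any alternative that was run. The number of chains higher in LGR5-high, 7, was 6 under DESeq2 and 1 under the methods' t-test on log2 CPM. Some fits without 1 library also lost the call of COL1A1 or COL8A1. The number lower, 2, was 0 under the t-test. It was 1 with at least 10 counts in every library, a filter that removes COL6A3. Over all genes, 3632 were higher and 3508 lower. These became 5473 and 2326 with library size only and 544 and 502 under the methods' t-test. Leaving out 1 library gave between 2279 and 3169 higher and between 2139 and 3004 lower genes. Scaling shifted all genes together: their median log2 fold change was 0.01 with TMM, 0.11 with upper quartile scaling and 0.24 with library size only, and the median of the 9 chains moved with it, from 1.85 to 1.95 and 2.08. The replicate block, with the pairing by pig, gave 4562 higher and 4342 lower genes and changed no call of a chain. Pairing the pigs leaves the difference of a partner ratio as it is by construction, and a pseudocount of 2 counts moved it most for COL6A3/COL6A2, from -9.35 to -9.09. Without each library in turn, COL1A1/COL1A2 ran from -2.48 to -1.43, COL3A1/COL1A2 from -6.88 to -6.53 and COL5A1/COL5A2 from 0.15 to 0.84. The cause of these changes was not tested. Depth limits COL6A3 in LGR5-high and COL8A1 in LGR5-negative, where libraries held as few as 5 and 10 counts.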
